A study of Mus musculus with 32 samples.

Results

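The comparison set whole muscle of wild-type (WT) mice of the 16-week group (WT.16Weeks, 4 libraries) against that of the 2-week group (WT.2Weeks, 5 libraries). These 9 libraries were taken from the 32 of the series by their group labels, and no measured value entered the choice of libraries. The comparison itself was chosen with earlier results of these data known. The series contrasts WT mice with mice in which DUX4 can be induced, a transcription factor that underlies facioscapulohumeral dystrophy when misexpressed. It also holds sorted endothelial cells and fibro-adipogenic progenitors (FAPs). The group labels give 2 and 16 weeks, and the labels name doxycycline chow, the inducing agent, as the treatment of all mice, WT included. The mice in both groups here therefore had the agent and no DUX4. The labels give no age, sex, strain, muscle, batch or animal identity, so that what else differed between the groups is not known here. Nothing in the labels says that the libraries came from separate animals, and the p-values measure the spread between these libraries. Libraries are numbered within a group in the order of their records, and the numbers pair nothing.

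Skeletal muscle is made of fast and slow fibres, which carry different sets of myosins, troponins, tropomyosins and calcium pumps, and of a connective tissue in which fibroblast-like cells lay down collagen. In a growing animal collagen genes and imprinted growth genes are highly active, and both are turned down as tissues mature. Whether the mice of either group were still growing is not known here. Each muscle also keeps a record of its place in the body in its Hox, T-box and other homeobox genes, and muscles differ widely in their content of slow fibres.

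Depth ran from 6.78 M counts (16-week replicate 4) to 19.4 M (16-week replicate 3), so that 3 counts, the limit that a count of 0 allows, stood for 0.442 to 0.155 CPM, the counts scaled to a common library size. This limit covers counting error only. Values per library are given in the order of replicates 1 to 5 at 2 weeks and 1 to 4 at 16 weeks. The libraries differed within groups in several ways that bear on all results. Hoxd8 stood at 65.6, 46.5, 45.9, 4.13 and 5.0 CPM at 2 weeks and 37.7, 39.3, 39 and 46 CPM at 16 weeks. Hoxc10 stood at 0, 0, 0.0822, 70.2 and 67.1 CPM at 2 weeks and 66.9, 71.9, 55.8 and 60.1 CPM at 16 weeks. At Hoxd8 the 16-week libraries were thus near 2-week replicates 1 to 3 and at Hoxc10 near replicates 4 and 5. Tbx1, a T-box factor, was at 1.97, 1.92, 1.48, 47.9 and 54.5 CPM at 2 weeks and at 5.4, 2.79, 4.06 and 4.36 CPM at 16 weeks. Positional genes of this kind differ between muscles, and the 16-week libraries matched neither set of 2-week libraries, so that time and the muscle taken cannot be told apart. The log2 change between the times was 1.21 against 2-week replicates 1 to 3 and -3.63 against replicates 4 and 5 for Tbx1, and -0.38 and 3.14 for Hoxd8, so that the sign depended on the set. For the main lists, and for the described genes whose changes against the 2 sets lay furthest apart, both values are given. Of the 16-week libraries replicate 4 had 1.05 CPM of Xist, the RNA of the inactive X chromosome, and the other 8 libraries had 151 to 267. The Y-linked genes Ddx3y, Kdm5d, Uty and Eif2s3y summed to 9.72 CPM of total counts in that library and 1.56 to 5.33 in the other 8. Ddx3y and Eif2s3y had 0 counts in it, and no sex was assigned. The 16-week replicate 1 correlated with the others of its group at 0.909 to 0.917, where the others reached 0.977. The 16 fast fibre genes, which mark the fast fibres of skeletal muscle, summed to 131540 to 153430 CPM at 2 weeks and 129210 to 159420 CPM at 16 weeks. No muscle was identified from this sum.

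The 2-week replicate 4 also stood apart from the other 2-week libraries at a set of mostly pseudogenes. At 50 genes, 36 of them pseudogenes and 9 protein coding, it lay at least 10-fold from each of the other 2-week libraries on the side of the 16-week libraries (38 higher, 12 lower), against 0 or 1 genes for every other 2-week library. Cox6b1, a subunit of cytochrome c oxidase, is one of them, with 224, 166, 227, 1.34 and 180.2 CPM at 2 weeks and 1.08, 0.612, 0.651 and 0.451 CPM at 16 weeks. The pseudogene Gm7336 had 76.9 CPM in replicate 4, where the other 2-week libraries had 3266 to 3712 and the 16-week libraries 68.9 to 125. Among genes with at least 10 counts, 58.9% had an expected count that was not whole in replicate 4, 73.5 to 80.1% in the other 2-week libraries and 51.2 to 59.4% in the 16-week libraries. Replicate 4 is thus the only 2-week library that shares this feature with the 16-week libraries, and for the other 2-week libraries time and this feature cannot be told apart. For this reason changes are also given against replicate 4 alone, an alternative chosen after the data were seen. Both comparisons use the same 16-week libraries and replicate 4 itself, so that they are not independent. Of the 50 genes 5 were called: Cox6b1, Atraid, mt-Tp, Rpl27-ps3 and Gm7336; these were named for following replicate 4 and are not described further as changes with time.

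**Figure D1:**
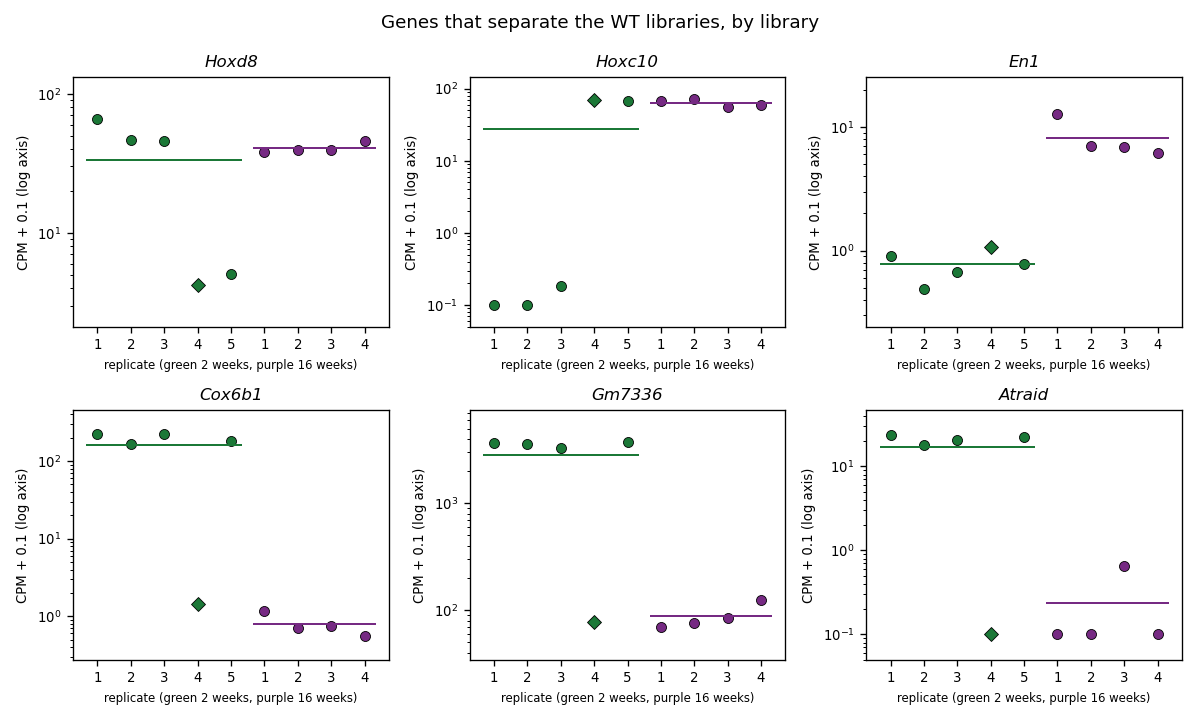
Level of 6 genes in each WT library, as CPM + 0.1 on a log axis against replicate number (green, 2 weeks; purple, 16 weeks; diamond, 2-week replicate 4; lines, group means). Hoxd8 and Hoxc10 split the 2-week libraries into replicates 1 to 3 and replicates 4 and 5, En1 separates both from 16 weeks, and at Cox6b1, Gm7336 and Atraid replicate 4 lies with the 16-week libraries.

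In all, 514 of 13605 genes tested (3.78%) passed an adjusted p of 0.05 in edgeR's quasi-likelihood test with Benjamini-Hochberg adjustment, the threshold at which a gene is called here, 263 higher at 16 weeks (1.93%) and 251 lower (1.84%). Called, rose and fell refer to this test unless another tool is named. DESeq2 called 1832 genes (884 higher and 948 lower) and limma voom 2801 (1528 and 1273), both more than edgeR's test. Their counts are given beside the lists they move and are to be read against these totals. For 1053 genes (7.74%) every 16-week library lay above every 2-week library, and for 907 (6.67%) every one lay below; 495 of the 514 called genes were among these. The median log2 change of all genes tested was 0.0127. The gene lists below were chosen with earlier results of these data known, so the shares set beside them are descriptions and not tests. The count rested on single libraries: it was 21 without 16-week replicate 2, 46 without 16-week replicate 3, 46 without 2-week replicate 3, 55 without 2-week replicate 1, 67 without 2-week replicate 5 and 924 without 2-week replicate 4. It was 1084 against 2-week replicates 1 to 3 alone, 43 against replicates 4 and 5 alone and 6 against replicate 4 alone, where 1 library stands for the group. Of the 63 called genes that the naming rule gave, 6 stayed called without each of the 9 libraries in turn: Mss51, Rasd2, Hoxd10 and En1, which rose, and Col1a1 and Rian, which fell. A further 5 (Meg3, Sparc, B2m, Mrc1 and Myl3) were lost only when 1 particular library was left out. The others passed the threshold by less, and the largest adjusted p that any of the 63 reached without 1 library was 0.128; none changed direction in any setting.

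Mss51, Rasd2 and Ostn had the largest rises among the genes that the naming rule ranks. Mss51, a muscle protein linked to the control of oxidative metabolism (chr14:20482867-20496901), stood at 16.4, 5.68, 6.99, 9.18 and 6.78 CPM at 2 weeks and 189.7, 358, 281 and 180.1 CPM at 16 weeks. Every 16-week library lay more than 10-fold above every 2-week library, the group means were 9.0 ± 4.33 CPM (SD, n = 5) and 252 ± 84.1 CPM (SD, n = 4), and the change was log2 4.80 ± 0.37 SE, adjusted p = 0.00148. Against replicate 4 alone it was 4.78. Rasd2, a small GTP-binding protein (chr8:75213944-75224113), had 1.68, 2.41, 2.71, 1.76 and 1.36 CPM at 2 weeks and 53.7, 112, 33.3 and 25.5 CPM at 16 weeks. Its groups did not overlap either (log2 4.8 ± 0.46 SE, adjusted p = 0.00295), and replicate 4 lay in the middle of the 2-week libraries. Ostn, which encodes the secreted muscle peptide musclin, had 1.17, 0.673, 0.822, 2.98 and 1.36 CPM at 2 weeks and 3.98, 105, 29.5 and 25.7 CPM at 16 weeks, so that the rise (log2 4.8 ± 0.85 SE, adjusted p = 0.0296) was uneven, with 16-week replicate 1 close to the 2-week libraries. Ampd3, an AMP deaminase, and Enox2, a cell-surface oxidase, rose by log2 2.59 and 2.47 (adjusted p = 0.0471 and 0.047), with 16-week replicate 1 at 184 and 133 CPM and the other 16-week libraries at 26.5 to 33.4 and 13.2 to 32.9. Without 2-week replicate 4 the adjusted p of these 2 genes was 0.056 and 0.0558.

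Slow fibre genes stood higher at 16 weeks. Of the 16 tested, 5 rose and none fell (31.2% against the 1.93% of all genes that rose), and 13 had a positive change. All 16-week libraries lay above at 10 of the 16 (against 7.74% of all genes), and the median log2 change was 1.82. DESeq2 called 11 higher and limma voom 10. Atp2a2, the slow fibre and heart calcium pump, had 144, 206, 298, 46 and 42.3 CPM at 2 weeks and 1716, 1648, 1473 and 1090.3 CPM at 16 weeks. Its 2-week libraries themselves fell into 2 levels, with replicates 4 and 5 the lowest, and the change was log2 3.33 ± 0.57 SE, adjusted p = 0.028; it was 2.78 against 2-week replicates 1 to 3 and 5.06 against replicates 4 and 5. Myl2, the slow and ventricular regulatory light chain, had 50.1, 50.7, 119, 3.04 and 18.9 CPM at 2 weeks and 567, 775, 752 and 479 CPM at 16 weeks (log2 3.74 ± 0.79 SE, adjusted p = 0.04), and its changes against the 2 sets, in the same order, were 3.14 and 5.87. Myl3, the matching essential light chain, was less uneven at 2 weeks, with 78.3, 57.1, 115, 96.4 and 153 CPM, and had 343, 641, 492 and 348 CPM at 16 weeks (log2 2.19 ± 0.30 SE, adjusted p = 0.0155). Tpm3, the slow tropomyosin, and Myoz2, a calcineurin-binding protein of the slow fibre Z-disc, rose by log2 2.99 and 1.44 (adjusted p = 0.0248 and 0.0345), Tpm3 by 2.52 and 4.22 against the 2 sets. The slow troponins did not pass the threshold, although no library overlapped: Tnnt1 had a log2 change of 3.35 (adjusted p = 0.0552), Tnnc1 of 3.65 (0.0545) and Tnni1 of 3.31 (0.0617). Against each set alone all 3 were called, with 2.69 and 6.24 for Tnnt1, 2.98 and 6.84 for Tnnc1 and 2.65 and 6.33 for Tnni1. In bulk muscle a larger share of slow fibres and more of these RNAs per fibre cannot be told apart. The median of the list was 2.12 against 2-week replicates 1 to 3, 1.8 against replicates 4 and 5 and 2.3 against replicate 4 alone. The number that rose was 8 without 2-week replicate 4, 3 without 2-week replicates 3 or 5 or 16-week replicate 4, 2 without 2-week replicate 2, 1 without 2-week replicate 1 or 16-week replicate 3, 1 without 16-week replicates 1 and 4 together, and 0 without 16-week replicate 2.

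Among the 10 sarcomeric myosin heavy chains tested, Myh6 rose (10% against the 1.93% of all genes that rose) and none fell in edgeR's test. DESeq2 called 4 higher and 2 lower and limma voom 5 and 2. Myh6, the alpha chain of heart and of some slow fibres, had 4.67, 11.1, 81, 8.94 and 8.05 CPM at 2 weeks and 290.2, 548, 493 and 333 CPM at 16 weeks (log2 4.19 ± 0.85 SE, adjusted p = 0.0369); 2-week replicate 3 was well above the other 2-week libraries, and the change was 3.69 against 2-week replicates 1 to 3 and 5.61 against replicates 4 and 5. Myh7, the beta or slow chain, which lies next to Myh6, had 128, 269.7, 435, 8.39 and 8.98 CPM at 2 weeks and 2911, 2452, 2166 and 1615 CPM at 16 weeks. Its change, log2 3.75 ± 1.06 SE, was not called (adjusted p = 0.0772), and the 2-week libraries differed from each other by more than 50-fold. It was called against each set alone, with 3.05 and 8.03 (adjusted p = 0.007 and 0.0036). Whether counting used strand is not given in the sources used here. Without it, reads of either gene cannot be told apart from reads of the antisense RNA beside them. Of the fast chains, Myh4 (type 2B) had a log2 change of 0.32 (adjusted p = 0.283), Myh2 (type 2A) of 0.26 (0.609) and Myh1 (type 2X) of -1.21 (0.0582). At Myh1 every 16-week library, 7740.5, 3031, 3936 and 5467 CPM, lay below every 2-week library, 8492, 9988, 10247, 15154 and 14451 CPM. The list of 16 fast fibre genes had no called member in edgeR's test and a median log2 change of 0.0161; 4 had an unadjusted p under 0.05, DESeq2 called 1 higher and 2 lower, and limma voom 3 and 3. The embryonic chain Myh3 and the neonatal chain Myh8 had overlapping groups, with changes of -0.09 and -0.83 (adjusted p = 0.954 and 0.306); against the 2 sets the changes were -0.51 and 0.95 for Myh3 and -1.30 and 0.40 for Myh8, of opposite sign.

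**Figure D2:**
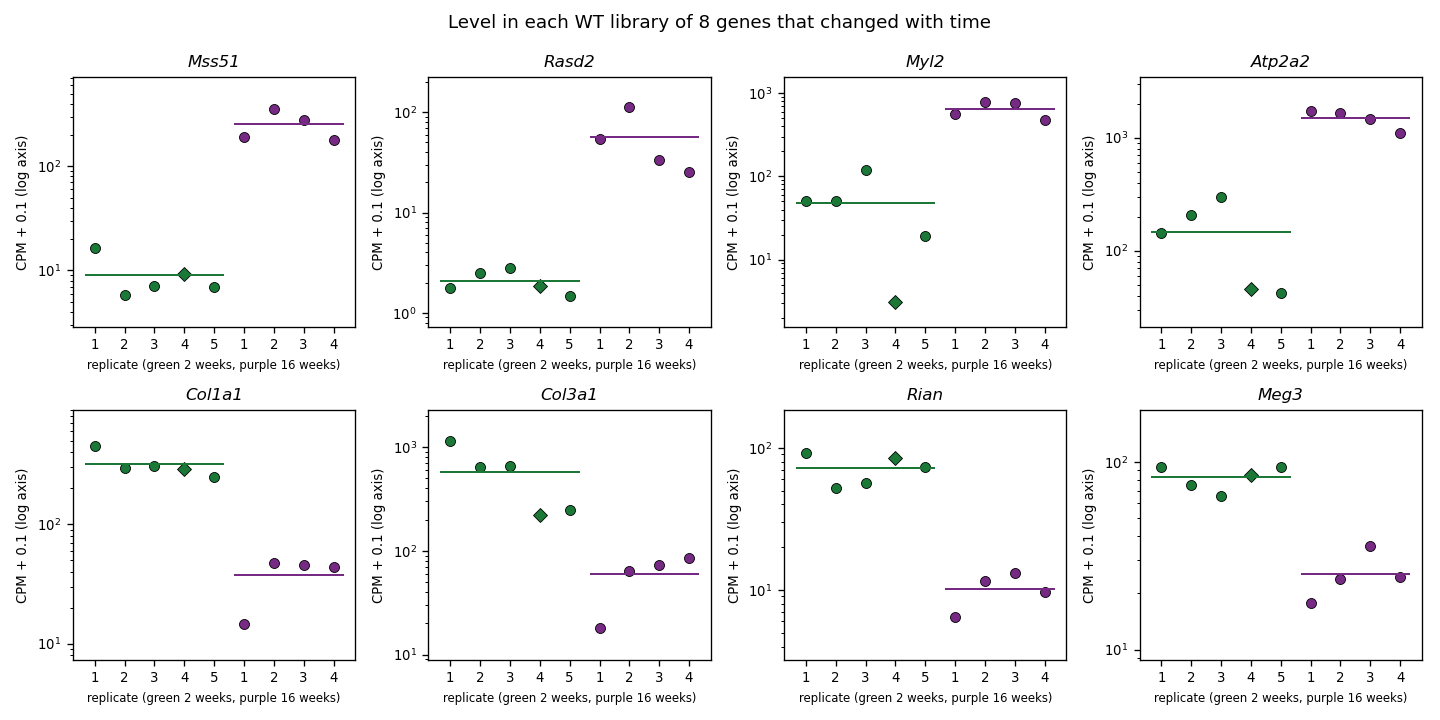
Level of 8 called genes in each WT library, as CPM + 0.1 on a log axis against replicate number (green, 2 weeks; purple, 16 weeks; diamond, 2-week replicate 4; lines, group means). In all 8 genes the groups do not overlap; at Myl2 and Atp2a2 2-week replicates 4 and 5 are the lowest, and at Col1a1 and Col3a1 16-week replicate 1 is the lowest.

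Collagen genes moved the other way. Of 26 fibrillar collagen genes and collagen modifiers tested, 10 fell and none rose (38.5% against the 1.84% of all genes that fell). In this list 25 had a negative change and 17 had all 16-week libraries below (against 6.67% of all genes). The median log2 change was -1.41. Col1a1, the main chain of type I collagen (chr11:94936224-94953042), had 451, 296, 306, 289.6 and 249 CPM at 2 weeks and 14.6, 46.8, 45.7 and 44 CPM at 16 weeks. All 5 of the 2-week libraries lay more than 5-fold above all 4 of the 16-week libraries, with means of 318 ± 77.1 CPM (SD, n = 5) and 37.8 ± 15.5 CPM (SD, n = 4), and the change was log2 -3.08 ± 0.36 SE, adjusted p = 0.00767. Its partner chain Col1a2 had 484, 301, 301, 204 and 175 CPM at 2 weeks and 16, 56.2, 58 and 61.3 CPM at 16 weeks (log2 -2.62 ± 0.45 SE, adjusted p = 0.0279). Col3a1, the type III collagen chain, had 1129.7, 640.1, 659, 221 and 248 CPM at 2 weeks and 17.8, 63.9, 73.2 and 84.6 CPM at 16 weeks (log2 -3.28 ± 0.62 SE, adjusted p = 0.0315); 2-week replicates 4 and 5 lay below replicates 1 to 3, and its log2 change was -3.76 against replicates 1 to 3 and -1.98 against replicates 4 and 5. Sparc, a collagen-binding matrix protein, had 606, 398, 450.3, 326 and 359 CPM at 2 weeks and 90.5, 114, 121 and 162 CPM at 16 weeks (log2 -1.81 ± 0.23 SE, adjusted p = 0.0102). The type V chains Col5a1 and Col5a2, the type VI chain Col6a2, the collagen cross-linking enzymes Loxl2 and Plod2 and the collagen chaperone Serpinh1 fell by 1.88, 2.19, 1.67, 1.94, 1.35 and 3.38 on the log2 scale (adjusted p = 0.0483, 0.0276, 0.0481, 0.0319, 0.038 and 0.0279). Serpinh1 stood at 4.2 CPM in 2-week replicate 4 and at 14.5 to 29.2 in the others, and against replicate 4 alone its change was -1.22. Lox, which also cross-links collagen, had a change of 0.37 (adjusted p = 0.723).

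Against 2-week replicates 1 to 3 alone 17 members of the collagen list fell, with a median of -1.63, where 546 of 13760 genes fell. Against replicates 4 and 5 alone, where 13 of 14330 genes fell, none of the list did. The median there was -0.914, with 24 of 26 changes negative. Against replicate 4 alone the median was -0.836 with 22 changes negative and no call. DESeq2 called 20 lower and limma voom 19. The number of its members that fell was 14 without 2-week replicate 4, 5 without 16-week replicates 1 and 4, 1 without 16-week replicate 2, 2 without any 1 of 16-week replicate 3, 2-week replicate 1 and 2-week replicate 3, 3 without 2-week replicate 2 and 4 without 2-week replicate 5. In the wider matrix, 5 of 33 genes fell and none rose (15.2% against 1.84%), where DESeq2 called 10 lower and 1 higher and limma voom 6 and 1. The list had a median of -0.800 that was -0.990 against replicates 1 to 3 and -0.160 against replicates 4 and 5. None of the list fell without any 1 of 2-week replicates 1 and 3 and 16-week replicates 2 and 3. The 5 were periostin (Postn, log2 -2.96), elastin (Eln, -2.29), fibrillin 2 (Fbn2, -2.35), cathepsin K (Ctsk, -1.66) and biglycan (Bgn, -0.87), at adjusted p = 0.0301, 0.0351, 0.0383, 0.0344 and 0.0274. For Postn the change was -3.45 against 2-week replicates 1 to 3 and -1.65 against replicates 4 and 5. In basement membrane, 3 of 15 genes fell (20% against 1.84%), the type IV collagen chains Col4a1 and Col4a2 and agrin (Agrn), which clusters acetylcholine receptors at the nerve contact. DESeq2 called 8 lower and limma voom 9, the median was -0.773, with -0.793 and -0.852 against the 2 sets, and none of the list fell without any 1 of 2-week replicates 1 and 3 and 16-week replicates 2 and 3. Col4a1 had 343, 198, 271, 329 and 449 CPM at 2 weeks and 40.9, 79.99, 92.2 and 102 CPM at 16 weeks (log2 -2.01 ± 0.31 SE, adjusted p = 0.023), and here 2-week replicates 4 and 5 were among the highest libraries. The markers of FAPs, the cells that make much of this matrix, had 1 called member: Smoc2 rose (log2 0.75, adjusted p = 0.0384). This was 5% of the list against the 1.93% of all genes that rose. No other of the 20 was called in edgeR's test, and 19 had a negative change. DESeq2 called 1 higher and 2 lower and limma voom 1 and 3. The median of -0.958 was -1.43 against 2-week replicates 1 to 3 and 0.147 against replicates 4 and 5. The summed level of the FAP markers was 1598, 1430, 1153, 600.2 and 602 CPM at 2 weeks and 319, 834, 868 and 804 CPM at 16 weeks. Only 16-week replicate 1 thus lay below the 2-week range. The part of this level in the collagen result was not tested.

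Imprinted genes are expressed from 1 parental copy, and many of them act in growth before and after birth. Of 20 tested, 2 fell (10% against 1.84%), 16 had a negative change and the median log2 change was -1.25, with -1.21 against 2-week replicates 1 to 3, -0.693 against replicates 4 and 5 and -0.480 against replicate 4 alone. DESeq2 called 12 lower and limma voom 13, and edgeR's test 7 without 2-week replicate 4, 5 without 16-week replicate 1 and 1 without 16-week replicate 2. The 2 were long non-coding RNAs read from the maternal chromosome in the Dlk1-Dio3 domain of chromosome 12. Rian (chr12:109603940-109661716) had 91.9, 52.1, 56.1, 84.2 and 73.3 CPM at 2 weeks and 6.37, 11.4, 13 and 9.61 CPM at 16 weeks, a drop in every 16-week library (log2 -2.82 ± 0.26 SE, adjusted p = 0.00266). Meg3 (chr12:109541001-109571726) had 94, 75.5, 65.9, 85.3 and 93.3 CPM at 2 weeks and 17.6, 23.7, 35.4 and 24.2 CPM at 16 weeks (log2 -1.71 ± 0.21 SE, adjusted p = 0.00911). Against replicate 4 alone the changes were -3.06 and -1.76, as large as against all 5 libraries. Mirg, another RNA of that domain, also lay lower in every 16-week library but had an adjusted p of 0.0505 (log2 -2.10). The paternally expressed Dlk1 of the same domain, at 1.6 CPM or less in every library, had a change of 0.08 (adjusted p = 0.943). Igf2, the fetal growth factor, was at 153, 84.5, 70.1, 46.6 and 60.2 CPM at 2 weeks and 40.5, 37.4, 29.3 and 29.7 CPM at 16 weeks (log2 -1.28, adjusted p = 0.0616), with no overlap. H19, its neighbour, had a change of -1.73 (adjusted p = 0.0739) and Cdkn1c, a cell cycle inhibitor, of -1.69 (adjusted p = 0.0619). For Igf2, H19 and Cdkn1c the change against replicate 4 alone was smaller, -0.45, -0.69 and -0.40. Grb10 and Plagl1 had all 16-week libraries below without passing the test (adjusted p = 0.0895 and 0.0709).

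Interferon-stimulated genes, which cells switch on through a transcription factor complex when interferon is sensed, stood lower at 16 weeks. Of 28 tested, 9 fell and none rose (32.1% against the 1.84% of all genes that fell), and 26 had a negative change. All 16-week libraries lay below at 16 of the 28 (against 6.67% of all genes), and the median log2 change was -1.32. DESeq2 called 16 lower and limma voom 17. The promoters of 3 that fell are shown because each holds an interferon-stimulated response element (ISRE), the site the complex binds. The 250 bases before the RefSeq start site are given 5′ to 3′ on the gene's strand, build GRCm38.p6, with matches of the motif (GAAA, any 2 bases, GAAA) on either strand in capitals; overlapping matches run together.
Bst2, chr8:71537473-71537722, minus strand: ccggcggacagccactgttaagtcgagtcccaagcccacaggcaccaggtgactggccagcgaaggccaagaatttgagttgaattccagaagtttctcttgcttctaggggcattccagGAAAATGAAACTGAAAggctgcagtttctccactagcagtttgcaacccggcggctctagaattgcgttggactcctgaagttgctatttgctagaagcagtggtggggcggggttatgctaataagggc
Gbp3, chr3:142559794-142560043, plus strand: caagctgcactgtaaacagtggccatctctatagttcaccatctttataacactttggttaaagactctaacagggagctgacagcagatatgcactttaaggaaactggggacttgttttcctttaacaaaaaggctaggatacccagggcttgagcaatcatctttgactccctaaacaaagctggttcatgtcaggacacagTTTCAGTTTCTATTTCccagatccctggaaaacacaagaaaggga
Rsad2, chr12:26456453-26456702, minus strand: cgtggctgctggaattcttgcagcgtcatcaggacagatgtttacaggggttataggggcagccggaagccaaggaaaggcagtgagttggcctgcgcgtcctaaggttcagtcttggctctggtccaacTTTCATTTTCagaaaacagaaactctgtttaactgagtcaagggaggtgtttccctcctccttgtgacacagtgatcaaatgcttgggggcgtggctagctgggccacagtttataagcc
Of the 28 genes 19 had a promoter in the RefSeq table, and 14 of these held the motif within 250 bases before and 50 after a start. Of the 9 that fell 7 had a promoter there, 4 of them with the motif: Bst2, Gbp3, Rsad2 and Stat2. Counted by gene in the same way, 3.99% of all 27025 symbols in the table held it. Counted by promoter, 3.44% of all 32851 of the same length did. A match is a description of the letters and not of binding.

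Bst2, or tetherin, which holds budding viruses at the cell surface, had 9.33, 5.39, 4.11, 5.29 and 7.28 CPM at 2 weeks and 1.19, 2.18, 2.45 and 2.4 CPM at 16 weeks (log2 -1.62 ± 0.31 SE, adjusted p = 0.0315). Rsad2, or viperin, had 6.63, 6.45, 4.11, 8.27 and 10.6 CPM at 2 weeks and 1.08, 2.45, 2.3 and 3.91 CPM at 16 weeks (log2 -1.61 ± 0.38 SE, adjusted p = 0.0498). Gbp3, a guanylate-binding protein, had 7.36, 8.18, 5.26, 6.99 and 9.66 CPM at 2 weeks and 0.568, 2.45, 3.51 and 1.65 CPM at 16 weeks (log2 -1.85 ± 0.43 SE, adjusted p = 0.0494). In all 3 the groups did not overlap, and 16-week replicate 1 was the lowest library. Irf7, the transcription factor that amplifies the interferon response, had 6.34, 5.68, 4.11, 3.83 and 6.78 CPM at 2 weeks and 0.284, 1.16, 1.9 and 0.901 CPM at 16 weeks (log2 -2.30 ± 0.46 SE, adjusted p = 0.033). Oasl2, an oligoadenylate synthetase-like protein, had 5.54, 4.81, 3.78, 5.78 and 5.76 CPM at 2 weeks and 0.512, 1.16, 1.8 and 2.1 CPM at 16 weeks (log2 -1.92 ± 0.37 SE, adjusted p = 0.0318). Stat2, a transcription factor of the response, had a smaller log2 change of -0.77 (adjusted p = 0.0345). Rtp4 and Ifi44, both interferon-induced, fell by 1.59 and 2.74 on the log2 scale (adjusted p = 0.0391 and 0.0481). Ifit1, Isg15 and Mx1, textbook members of the response, had changes of -0.76, -1.35 and -0.96 and did not pass (adjusted p = 0.206, 0.176 and 0.236). The list's median was -1.30 against 2-week replicates 1 to 3, -1.15 against replicates 4 and 5 and -1.0 against replicate 4 alone. The sign thus did not depend on the set. The calls did depend on single libraries: 10 fell without 2-week replicate 4 and 9 without 16-week replicate 1, but 1 without 16-week replicate 3, 1 without 16-week replicate 4, 2 without 16-week replicates 1 and 4 together and 0 without any other 1 library.

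Antigen presentation genes lay lower with them. Of 22 tested, 3 fell and none rose (13.6% against 1.84%), 21 had a negative change and the median was -0.700, with -0.739 and -0.493 against the 2 sets. DESeq2 called 7 lower and limma voom 8, and in edgeR's test 1 fell without any 1 of 2-week replicates 1, 3 and 5 and none without 16-week replicate 2. B2m, the light chain shared by all MHC class I molecules, had 87.4, 84.9, 75.2, 80.3 and 91.2 CPM at 2 weeks and 41, 46.5, 52.4 and 50.5 CPM at 16 weeks. The spread within each group was small, the groups did not overlap, and the change was log2 -0.82 ± 0.11 SE, adjusted p = 0.0141. H2-T23, a non-classical class I heavy chain, had 12.3, 15.2, 12.8, 12.1 and 14.3 CPM at 2 weeks and 4.66, 7.28, 7.36 and 5.41 CPM at 16 weeks (log2 -1.10 ± 0.17 SE, adjusted p = 0.0222). Psmb10, a subunit of the immunoproteasome, fell by 0.75 on the log2 scale (adjusted p = 0.0395). Of 20 macrophage and myeloid genes Mrc1, the mannose receptor, fell, with 21.7, 22.5, 13.3, 15.9 and 15.2 CPM at 2 weeks and 6.37, 5.17, 6.26 and 3.91 CPM at 16 weeks (log2 -1.69 ± 0.21 SE, adjusted p = 0.0102). No other was called in edgeR's test, so that 5% of the list fell against 1.84% of all genes. DESeq2 and limma voom each called 2 lower. The median of the macrophage list was -0.799, but it was -1.40 against 2-week replicates 1 to 3 and 0.988 against replicates 4 and 5. The summed level of that list was 243, 221, 166, 58.9 and 56.1 CPM at 2 weeks and 236, 54.5, 52.4 and 52.7 CPM at 16 weeks. Only 16-week replicate 1 thus lay within the 2-week range, and the other 16-week libraries lay below it. The part of this level in the interferon result was not tested. Kit, a receptor of mast cells and other progenitors, and Ms4a1, or CD20 of B cells, fell at levels of at most 2.63 and 1.44 CPM (adjusted p = 0.0296 and 0.0481).

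**Figure D3:**
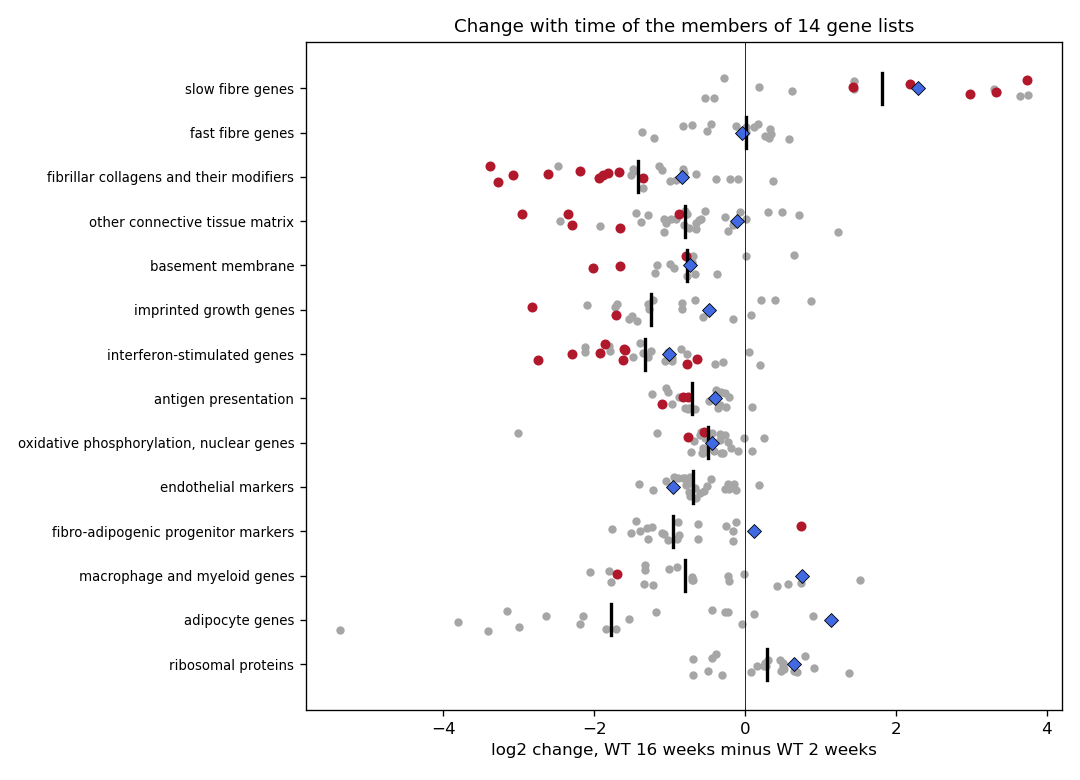
Log2 change between 16 and 2 weeks of each tested member of 14 gene lists (x axis; red, called; grey, not called; black bar, list median; blue diamond, list median against 2-week replicate 4 alone; vertical scatter within a list has no meaning). Slow fibre genes lie to the right and collagen, basement membrane, imprinted, interferon-stimulated and antigen presentation genes to the left of 0 by both medians, while for FAP, macrophage and adipocyte genes the 2 medians lie on opposite sides of 0.

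Nuclear genes of oxidative phosphorylation lay lower at 16 weeks by small amounts. Of 28, edgeR's test called 2 lower (7.14% against 1.84%), Cycs, or cytochrome c, and Uqcrfs1, the Rieske subunit of complex III. Cycs had 179, 163, 205, 203 and 184 CPM at 2 weeks and 83.3, 121, 123 and 117 CPM at 16 weeks (log2 -0.75 ± 0.14 SE, adjusted p = 0.0315), and Uqcrfs1 had 537, 446, 503, 481 and 498 CPM at 2 weeks and 290.0, 337, 325 and 404 CPM at 16 weeks (log2 -0.54 ± 0.13 SE, adjusted p = 0.0486). In this list 26 changes were negative, 14 genes had all 16-week libraries below (against 6.67% of all genes), 20 had an unadjusted p under 0.05, DESeq2 called 16 lower and limma voom 18. The median was -0.488, with -0.454 and -0.469 against the 2 sets and -0.435 against replicate 4 alone. In edgeR's test 6 fell without 16-week replicate 1 and none without any 1 of 2-week replicates 1, 2, 3 and 5 and 16-week replicates 2 and 3. Among 20 genes of mitochondrial ribosome and import, Timm44, Mrpl34 and Mrpl1 fell by 0.47, 0.64 and 0.43 on the log2 scale (adjusted p = 0.0483, 0.0486 and 0.0489), 15% of the list against 1.84% of all genes. None of these was called without any 1 of 2-week replicates 1, 2, 3 and 5 and 16-week replicates 2 and 3. In glycolysis, Pfkfb3, which makes the activator of phosphofructokinase, rose (61.8, 114, 128, 49.9 and 80.5 CPM at 2 weeks and 330.4, 751, 336 and 148 CPM at 16 weeks; log2 2.17 ± 0.45 SE, adjusted p = 0.0374), and Pgk1, phosphoglycerate kinase, fell (979, 818, 956, 617 and 963 CPM at 2 weeks and 312, 459, 404 and 475 CPM at 16 weeks; log2 -1.07 ± 0.19 SE, adjusted p = 0.028). Pgk1 has near-identical copies, 2-week replicate 4 was its lowest 2-week library, and against that library alone the change was -0.58. The pseudogene Pgk1-rs7 had 214 CPM in that library, 0 in the other 2-week libraries and 115 to 139 at 16 weeks. How far reads assigned to Pgk1-rs7 account for the Pgk1 fall was not tested. Fbxo32, the muscle ubiquitin ligase atrogin-1, rose, with 242, 293, 192, 131 and 155 CPM at 2 weeks and 1173, 524, 375 and 475 CPM at 16 weeks (log2 1.65 ± 0.36 SE, adjusted p = 0.0427); 16-week replicate 1 was the highest. Irs2, an adaptor of the insulin receptor, rose (15.2, 22.5, 10.4, 10.2 and 15.2 CPM at 2 weeks, 32.3, 36, 41.6 and 75.3 CPM at 16 weeks; log2 1.65 ± 0.31 SE, adjusted p = 0.0315), and Igfbp3, which binds insulin-like growth factors, fell (log2 -1.02 ± 0.18 SE, adjusted p = 0.028). Cry2, a repressor of the circadian clock, rose by log2 1.29 (adjusted p = 0.0431). No other of 20 clock genes was called in edgeR's test, so that 5% of the list rose against 1.93% of all genes. DESeq2 called 3 clock genes higher and limma voom 5. The heat shock genes Hspa1a and Hspa1b, a near-identical pair between which reads can be split, rose by 1.90 and 1.78 (adjusted p = 0.0318 and 0.0442).

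Several other lists of cell types or states had few called members or none. Of 24 endothelial markers none was called in edgeR's test (4 had an unadjusted p under 0.05, DESeq2 called 0 higher and 1 lower, and limma voom 0 and 5), 23 had a negative change and the median was -0.694, with -0.483 against 2-week replicates 1 to 3 and -0.955 against replicates 4 and 5. Adipocyte genes had a median of -1.78 over 18 genes and no call in edgeR's test (7 had an unadjusted p under 0.05, DESeq2 called 0 higher and 4 lower, and limma voom 0 and 1); it was -2.37 against replicates 1 to 3 and 0.754 against replicates 4 and 5, a reversal of sign between the sets. Their summed level was 3747 to 10731 CPM at 2 weeks and 3368 to 5082 CPM at 16 weeks. Ucp1, a list member that the count filter left untested, had 618.27, 3890.5, 3380.1, 0 and 1 counts at 2 weeks. At 16 weeks it had 3, 0, 5 and 1 counts. The part of this difference between the 2-week sets in the other lists was not tested. Complement genes also reversed sign between the sets, with medians of -1.20 and 0.507. Among the 16 tested, Cd55, which protects cells from complement, rose (log2 0.78, adjusted p = 0.0318), 6.25% of the list against 1.93% of all genes. Satellite cell and myogenic regulators had a median of 0.00540 over 20 genes. Megf10, a satellite cell receptor, fell (log2 -1.26, adjusted p = 0.0486), 5% of the list against 1.84% of all genes. Pax7, which marks these stem cells, had a change of -0.64 (adjusted p = 0.189). Of 16 cell cycle genes Kif11, a spindle motor, fell from a level of 1.06 to 2.47 CPM (log2 -1.96, adjusted p = 0.0385), 6.25% of the list against 1.84% of all genes. No member was called among genes of the nerve contact and denervation (17), p53 targets (15), immediate early genes (24), dystrophin complex (20), ribosomal proteins (22) or integrated stress response (27) in edgeR's test; in that order 4, 3, 9, 5, 6 and 4 members had an unadjusted p under 0.05, DESeq2 called 1, 0, 3, 1, 1 and 0 and limma voom 2, 1, 4, 5, 7 and 3.

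Some genes of body position differed between the times and not only between the 2 sets of 2-week libraries. Hoxd10, which acts in the patterning of limb and trunk, had 242 counts over the 16-week libraries and 3 over the 2-week libraries. Its level was 5.34, 3.81, 3.86 and 2.25 CPM at 16 weeks and at most 0.122 CPM at 2 weeks, a ratio of rates of 92.7 with an exact 95% interval of 31.4 to 453 that covers counting error only. En1, which marks the ventral limb, had 0.802, 0.385, 0.576, 0.973 and 0.678 CPM at 2 weeks and 12.5, 6.94, 6.71 and 6.01 CPM at 16 weeks (log2 3.52 ± 0.32 SE, adjusted p = 0.00266). Six2, a homeobox transcription factor, rose by log2 2.53 (adjusted p = 0.0391), with 0.802, 0.962, 0.987, 5.23 and 2.46 CPM at 2 weeks and 10.6, 13.9, 15.8 and 8.71 CPM at 16 weeks; its change was 3.74 against 2-week replicates 1 to 3 and 1.66 against replicates 4 and 5. Sim1, another transcription factor, fell by 2.32 on the log2 scale (adjusted p = 0.0274). Hoxa5 stood at 12.4, 10.01, 12.2, 3.53 and 3.56 CPM at 2 weeks and 3.81, 1.77, 2.66 and 2.7 CPM at 16 weeks and was not called (adjusted p = 0.0795), with changes of -2.06 and -0.38 against the 2 sets. Hoxd9, with 12.1, 10.01, 10.5, 1.28 and 0.847 CPM at 2 weeks, was also split by set and stood at 18.8, 13.8, 12.7 and 16.2 CPM at 16 weeks. Hoxd10 and En1 were called, with the same direction, against 2-week replicates 1 to 3 alone (adjusted p = 0.00214 and 0.00234). Against replicates 4 and 5 alone neither was called (adjusted p = 0.0563 and 0.0554), also with the same direction and no overlap.

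The same time contrast in muscle with DUX4 (group IDUX.16Weeks, 4 libraries, against IDUX.2Weeks, 5 libraries) used none of the WT libraries. It called 1274 of 14824 genes (8.59%), 5.34% higher and 3.26% lower. Of the 514 genes called in WT muscle 502 were tested there, 447 had the same direction, and 147 were called in that direction, which is 29.3% of these WT calls and 13% of the DUX4 calls also tested in WT. The DUX4 libraries carried the same split of Hox genes at 2 weeks and the same low share of counts that were not whole at 16 weeks (50.7 to 62.6%, against 79.5 to 83.3% at 2 weeks), so that the 2 contrasts share what cannot be told apart from time. Mss51, Rasd2, En1, Myh6, Atp2a2 and Rian were called the same way, with DUX4 log2 changes of 2.55, 2.84, 3.37, 3.95, 2.68 and -2.76. Of the slow fibre genes 9 of 16 rose with DUX4 (median 1.88), and of the imprinted genes 10 of 20 fell and 1 rose (median -0.987). In 1 fit of all 18 whole-muscle libraries the WT contrast called 11 slow fibre genes higher and 11 imprinted genes lower. No gene of either list passed the test of the difference between WT and DUX4, given next.

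The difference between the 2 time changes was tested as an interaction over all 18 whole-muscle libraries, and 46 of 15396 genes (0.299%) passed. Mss51 rose in both, and by more in WT: the difference was 2.28 ± 0.443 (SE, log2; adjusted p = 0.0379). B2m and H2-T23 fell in WT muscle and had DUX4 changes of 0.34 and 0.25; the differences were -1.13 (adjusted p = 0.00844) and -1.32 (adjusted p = 0.0303). Among the 12 WT calls with such a difference were also Ifitm3 and Lgals3bp, both induced by interferon, with differences of -1.81 and -1.33 (adjusted p = 0.0379 and 0.037), and Olfml3 and Adamts20, secreted matrix proteins, with -1.68 and -2.19 (adjusted p = 0.0379 and 0.0188); these 4 lie outside the naming rule and were chosen after their values were seen. The interferon-stimulated list had a median of 0.106 in DUX4 muscle with no member that fell and Ifit1 higher. Ifit1 passed the interaction test (difference -2.82, adjusted p = 0.0379) and was not called in WT; none of the 9 members called in WT passed, so that a difference is not shown for those genes. Of the collagen list 3 members fell in DUX4 muscle (median -0.320): Serpinh1, Col3a1 and Col5a2. Col1a1 had a DUX4 change of -1.03 and was not called there (difference -2.03 ± 0.51 SE, adjusted p = 0.093). Leaving out single libraries moved the interaction count between 8 (without IDUX.16Weeks replicate 3) and 57 (without 16-week WT replicate 4).

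**Figure D4:**
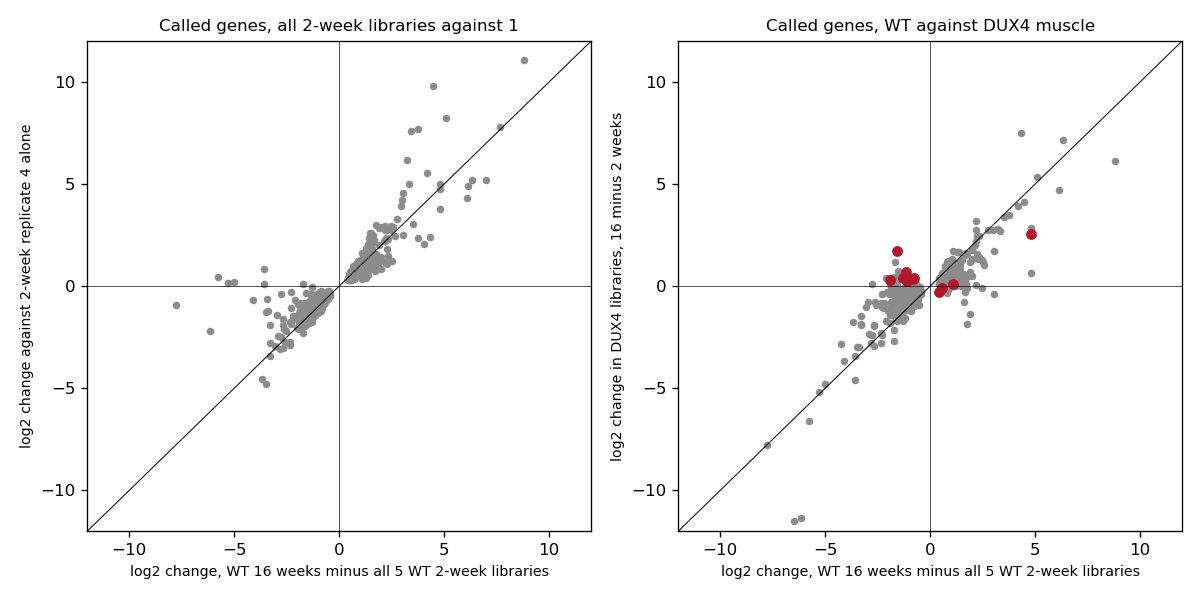
The 514 called genes, with the log2 change against all 5 WT 2-week libraries on the x axis; the y axis gives the log2 change against 2-week replicate 4 alone (left, 510 genes) or the log2 change in DUX4 muscle (right, 502 genes). The axes on the left share the 16-week libraries and replicate 4; there, the genes near 0 on the y axis with large falls on the x axis are those at which replicate 4 lay with the 16-week libraries, and right, red points are the 12 genes with a called difference between WT and DUX4.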

How the data were processed

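Expected counts per Ensembl gene, not scaled to depth, were deposited by the authors as 1 table per library; per the submitters' processing notes they were made with CASAVA 1.8, Salmon 0.6.0 and the mm10 genome (GRCm38). Of the annotation release, the summing of transcripts to genes and the use of strand, nothing is said (not given in the sources used here). Per the labels, 500 ng of Zymo-extracted RNA went into KAPA mRNA libraries read as 50-base pairs. Reads that fit several near-identical genes are shared out by Salmon's estimate, so single values of such genes are uncertain.

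Of 43035 genes, 42459 were given a symbol from GENCODE vM21. Counts were rounded and fitted in R 4.3.3 with edgeR 4.0.16 (filterByExpr with a minimum count of 10, TMM factors, robust quasi-likelihood test, Benjamini-Hochberg adjustment over all genes tested). The 9 WT libraries were fitted alone, and so were the 9 DUX4 libraries; the interaction used all 18. The SE is the log2 change divided by the square root of F. Most of the called genes in the text were named by rule. These are the 12 that rose most and the 12 that fell most, given at least 5 CPM in the higher group, an established symbol, no sex linkage and no overlap between groups. To these are added up to 3 called members of each of 49 gene lists, and the myosin, imprinted, Hox and T-box lists. Further called members of the slow fibre, collagen, wider matrix and interferon lists are named beyond the rule. They are Myoz2, Col5a1, Col6a2, Loxl2, Plod2, Eln, Fbn2, Gbp3, Rsad2, Stat2, Rtp4 and Ifi44. The 63 called genes that the rule gave do not include them. The comparison, the lists and the rule were chosen with earlier results of these data known, and no list was tested as a set. Alternatives were DESeq2 1.42.0, limma voom 3.58.1, other scaling and filters, thinned counts, each 2-week set alone and each library left out. The procedure was tested on simulated counts. RefSeq promoters (GRCm38.p6) were matched by symbol. Results for some genes that the rule names are not reported here.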

Additional observations from a re-analysis of the deposited data

Results flagged for a closer look

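Of 126 sets of WT libraries checked, 1 per named gene and group, 14 held a library further from the rest than the 95% limit of Dixon's test. That limit assumes normally spread values, and CPM were used as they stood. The sets reuse the same 9 libraries, and their genes were chosen because they were called. No rate by chance can therefore be set beside the 14. In the 2-week group, Myh6 was at 81 CPM in replicate 3 (mean of the others 8.18), Cox6b1 at 1.34 in replicate 4 (199), Col1a1 at 451 in replicate 1 (285), Bgn at 62 in replicate 1 (47.2), Smoc2 at 74.1 in replicate 1 (49.5) and Psmb10 at 9.54 in replicate 3 (7.02). In the 16-week group, 6 of the 8 were replicate 1: En1 at 12.5 CPM (mean of the others 6.55), Ampd3 at 184 (29.4), Enox2 at 133 (25.9), Col1a1 at 14.6 (45.5), Col1a2 at 16 (58.5) and Cycs at 83.3 (120). The other 2 were replicate 4, with Lrrc52, a subunit of potassium channels, at 12.3 CPM (2.70) and Serpinh1 at 3.45 (1.34).

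For 3 genes of the naming rule the time change differed between WT and DUX4 muscle in the interaction test. The log2 change in WT minus that in DUX4 was 2.28 for Mss51, -1.13 for B2m and -1.32 for H2-T23.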

How the results depend on the processing

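Called genes and direction. Against 514 genes called (263 higher, 251 lower), the fit of all 18 whole-muscle libraries called 2091 (1216 and 875), DESeq2 1832 (884 and 948) and limma voom with quality weights 2801 (1528 and 1273). No low-count filter gave 309 (173 and 136), a test against a fold change of 2 gave 10 (8 and 2), and thinning to the lowest total gave 291 (144 and 147). Against 2-week replicates 1 to 3 alone there were 1084 (538 and 546), against replicates 4 and 5 alone 43 (30 and 13), and without 16-week replicates 1 and 4 together 225 (123 and 102). Against replicate 4 alone, added after the data were seen and with the lone library assumed to vary like the 16-week group, there were 6 (6 and 0), with 730 genes at an unadjusted p under 0.05. Leaving out 1 library gave 21 to 924 (17 to 526 higher and 4 to 398 lower). The share of calls that were higher was 51.2%, and 54.6% with voom, 58.2% with 18 libraries, 69.8% against replicates 4 and 5 alone and 80% at a fold of 2. Relative log expression factors (488) and a filter at 1 CPM in 4 libraries (524) stayed within 1.5 times the count, and no setting moved the median of all genes by 0.1. The 147 calls shared with DUX4 became 332 with 18 libraries and 481 with 2-week replicates 1 to 3 alone in both. The 46 genes of the interaction became 447 with DESeq2 and 8 to 57 without 1 library. Of the 63 named called genes none reversed in any of these settings; named genes that were not called did, Tbx1, Hoxd8, Myh3 and Myh8 among them, between the 2-week sets. The causes of these differences were not tested, other than that fewer libraries or genes entered some fits. No paired analysis was possible because the replicate numbers follow the order of the records and pair nothing.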
